A study of Mus musculus with 12 samples.

Results

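RNA from embryoid bodies of Meteor knockout (KO) and wild-type (WT) cells at day 3 of differentiation was compared across all expressed genes. The comparison takes 6 of the 12 samples of the study, 3 KO and 3 WT, chosen by the genotype and day in their labels and paired by replicate number. The other 6 samples are undifferentiated embryonic stem cells (ESCs) of the same genotypes at day 0, used here for the difference before differentiation and for a test of its change to day 3. All groups carry an EGFP reporter at the Eomes gene (Eomes EGFP ESCs), on a C57BL/6 background. ESCs were grown on mouse embryonic fibroblast feeders, and embryoid bodies formed in hanging drops with 20% serum. The KO cells carry a deletion of Meteor made with a CRISPR-Cas9 nickase and were expanded from picked clones. The labels do not name the clone behind each KO sample, so effects of the deletion and features of a clone cannot be told apart. Nor do the labels say whether replicates were separate differentiations, so p-values measure the spread between these samples.

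Meteor is an enhancer of the Eomes locus that is transcribed into a long noncoding RNA. Eomes encodes a T-box factor that cells switch on as they leave pluripotency for the primitive streak, the structure of the gastrulating embryo from which mesoderm and definitive endoderm arise. Nodal, Wnt and BMP signals induce the streak, and its cells then lose epithelial contacts and move away. In embryoid bodies the same genes come on over the first days of differentiation, while cells that do not enter the streak pass through an epiblast stage from which neural tissue can form.

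Values are given as CPM, gene counts relative to library size after TMM normalization, and log2 fold changes of KO against WT with their standard errors (SE). Reads assigned to genes numbered 17455927 to 23910943 per sample. Genes were called changed with an adjusted p below 0.05 in edgeR's quasi-likelihood test with replicate number as a block. WT replicate 3 stood apart from the other WT samples. It was higher in blood and vessel genes such as Kdr (22.5, 19.8 and 263 CPM in WT and 1.81, 0.59 and 1.9 in KO) and lower in T (714, 634 and 275 CPM in WT and 13.9, 1.36 and 4.28 in KO), and 403 of 10988 genes differed more than 2-fold from the mean of the other WT samples, against 335 and 263 for replicates 1 and 2. Results that rest on this library are given with and without replicate 3, which removes the KO sample of that number as well. With each pair left out in turn, the log2 fold change of Kdr ranged from -6.77 to -4.13 (-5.80 with all samples) and that of T from -7.12 to -5.82 (-6.46 with all).

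Both annotated transcripts of the Meteor locus were without a read in KO at day 3. Platr11, on the minus strand at chr9:118404097-118406099, had 11, 53 and 32 reads in WT and 0 in each KO sample. The neighbouring transcript 2610509F24Rik (chr9:118402465-118403302) had 29, 92 and 74 reads in WT and again 0 in KO. Taking 3 counts over the KO group as a floor, Platr11 was at least 31.0-fold lower and 2610509F24Rik at least 62.9-fold lower. Eomes itself, downstream on the opposite strand, had 486, 496 and 266 CPM in WT and 56.5, 149.7 and 133 in KO. Every KO sample was below every WT sample, with a log2 fold change of -1.92 ± 0.36 (adjusted p = 0.007), so Eomes RNA was reduced but not lost. Among 29 tested genes within 2 Mb of the locus, 8 fell, Platr11, 2610509F24Rik and Eomes among them, and 6 rose, where 23.8% of all tested genes fell and 22.5% rose. The nearest coding genes on the other side, Cmc1 and Azi2, had log2 fold changes of -0.13 ± 0.12 and -0.11 ± 0.06 and were not called, nor was Golga4, the first coding gene beyond Eomes, at -0.08 ± 0.07.

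Upf3b, a core factor of nonsense-mediated mRNA decay encoded on the X chromosome (chrX:37091678-37110322), had the largest fall of any coding gene by the rule for named genes. It had 51.2, 50.4 and 56.1 CPM in WT and 0, 0 and 0.0432 in KO, which is 3231 reads in the WT samples together and 1 read in KO. The ratio of WT to KO was 3128 with a 95% exact interval from 561 to 123594 that covers counting error only. Upf3b was already low at day 0, with a log2 fold change of -6.78. Of 14 tested genes within 500 kb of it, Sept6 also fell (-0.35 ± 0.07), Slc25a5 rose (0.44 ± 0.06) and the others were not called. Of 15 NMD factors tested, 5 fell and 5 rose, and Upf3b alone changed more than 2-fold. Without the replicate block 2 of them fell and 3 rose.

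At day 3, 6863 of 14809 tested genes were changed, or 46.3%. Of these 3531 fell (23.8% of tested genes) and 3332 rose (22.5%). Changes of more than 2-fold were mostly decreases, with 1455 genes lower (9.83%) and 688 higher (4.65%) in KO. Of these 2143 genes, 2112 moved one way in each of the 3 pairs. Low expression in KO was common among the decreases. The KO mean was below 1 CPM for 677 of the 1455, and 29 tested genes had no read in any KO sample. Without the replicate block, 1150 genes fell and 569 rose more than 2-fold. The difference between KO and WT changed from day 0 to day 3 for 4889 of 15673 genes (31.2%, test of the interaction).

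**Figure D1:**
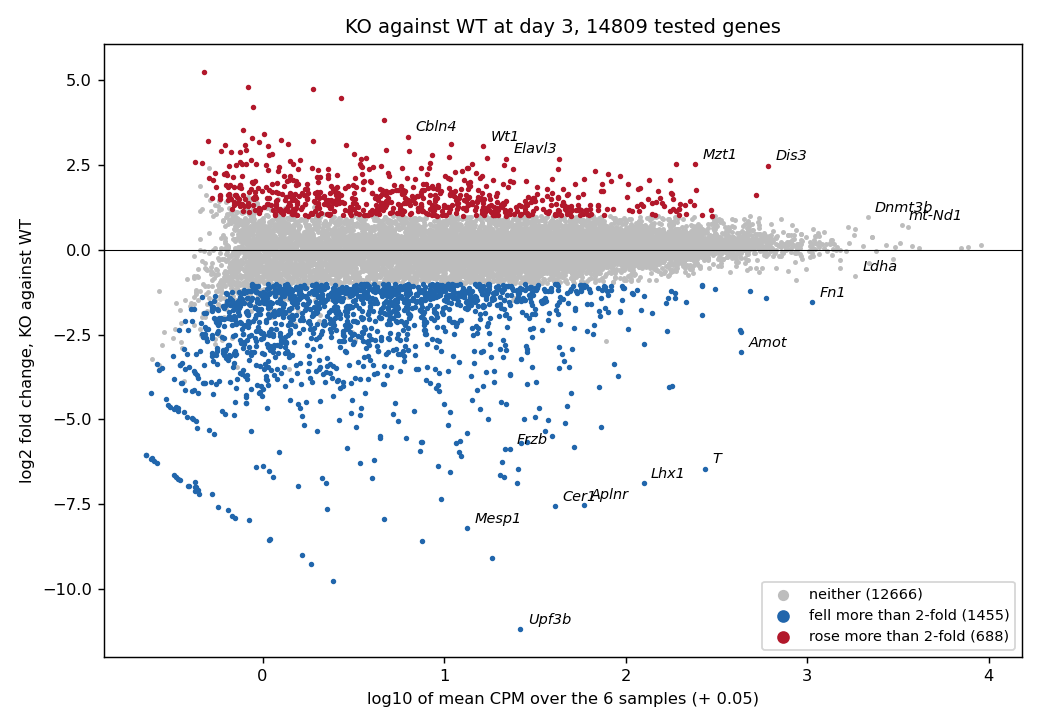
Log2 fold change of KO against WT at day 3 (vertical axis) against the log10 of mean CPM over the 6 samples (horizontal axis), 1 point per tested gene. Blue points are the 1455 genes that fell and red points the 688 that rose more than 2-fold with an adjusted p below 0.05, and grey points are the rest. The decreases reach much further from 0 than the increases, and the slanted lines of blue points at the lower left are genes with few or no reads in KO.

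After Upf3b, the coding gene with the largest decrease by the same rule was Mesp1. Mesp1, a transcription factor of nascent cardiac mesoderm, had 21.6, 29 and 29.1 CPM in WT and 0.0516, 0.118 and 0.0864 in KO. Its log2 fold change was -8.21 ± 0.21 (adjusted p = 1.5e-05). Cer1, a secreted inhibitor of Nodal, BMP and Wnt made by endoderm, had 114, 47.2 and 81.7 CPM in WT and 0.464, 0.59 and 0.259 in KO, and Aplnr, a receptor of migrating mesoderm, had 110.1, 105 and 136 CPM in WT and 0.671, 0.177 and 0.994 in KO. In all of these genes the KO samples lay far below the lowest WT sample. Lhx1, a factor of the organizer and of axial mesendoderm, had 314, 206 and 229 CPM in WT and 1.75, 2.06 and 2.46 in KO (-6.87 ± 0.17). It was as low at day 0, at -6.97 on the log2 scale. Evx1, a factor of the posterior streak, had 42.9, 41.8 and 36.5 CPM in WT and 0.774, 0 and 0.389 in KO (-6.64 ± 0.41). The noncoding Evx1os, which starts beside Evx1 on the other strand, had 20.9, 17.1 and 16.9 CPM in WT and 0.361, 0.059 and 0.216 in KO (-6.37 ± 0.29). Because the strand setting of the counting is not given in the sources used here, reads of Evx1 and Evx1os may not be fully told apart. Frzb, a secreted Wnt inhibitor, had 51, 48.7 and 35.9 CPM in WT and 0.877, 0.413 and 0.907 in KO (-5.88 ± 0.23), and Hs3st3b1, which modifies heparan sulfate, had 19.3, 18.3 and 85.5 CPM in WT and 0.206, 0.59 and 0.778 in KO (-6.25 ± 0.29). WT replicate 3 was the highest sample for Hs3st3b1, and the log2 fold change was -5.59 without that pair. For Evx1, where 1 KO sample had no read, leaving out each pair in turn gave -7.44 to -6.12. Dkk1, another secreted Wnt inhibitor, had 30.3, 23.9 and 72.3 CPM in WT and 0.361, 0.413 and 0.432 in KO (-6.70 ± 0.24).

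By the same rule, which asks for at least 10 CPM in every KO sample, the largest increases were smaller and fell on genes of several tissues. Some genes below that level rose further, Neurog3 among them, and 1 called rise exceeded 5 on the log2 scale. Wt1, a zinc finger factor of kidney and gonad, had 3.7, 4.48 and 2.58 CPM in WT and 30.2, 29.6 and 27.6 in KO (3.04 ± 0.16, adjusted p = 0.00012), and at day 0 its difference was -1.11. Cbln4, a secreted synaptic protein, had 0.866, 0.697 and 1.99 CPM in WT and 10.5, 11 and 12.8 in KO (3.33 ± 0.28). Elavl3, an RNA-binding protein of neurons, had 2.84, 10.5 and 4.76 CPM in WT and 16.6, 57.5 and 39.2 in KO (2.68 ± 0.14). In all of these genes every KO sample was above every WT sample. Atcay, which encodes the neuronal protein caytaxin, rose by 2.77 and Hrh3, a histamine receptor of neurons, by 2.90 on the log2 scale. Tnnt1, the troponin T of slow skeletal muscle, rose by 2.73 and Aldh1b1, a mitochondrial aldehyde dehydrogenase, by 2.52. Rpl39l, a copy of a ribosomal protein gene used in the testis, had 2.98, 1.84 and 1.9 CPM in WT and 22.1, 20.8 and 15.4 in KO (3.12 ± 0.17). Its count is uncertain where reads also match Rpl39 copies, since reads with several alignments are not counted. Sh2d5 rose by 2.55 and Rgl3 by 2.49.

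In absolute CPM the largest decrease was that of Fn1, the fibronectin of the extracellular matrix, at 972, 1052 and 2849 CPM in WT and 352, 511 and 639.9 in KO. The groups did not overlap, and its log2 fold change was -1.55 ± 0.20 (adjusted p = 0.0016), or -1.26 without replicate 3. Amot, an angiomotin that acts in the Hippo pathway, had 357, 288 and 1751 CPM in WT and 65.3, 65.6 and 76.1 in KO (-3.02 ± 0.46), and WT replicate 3 was again the highest sample. Without it the log2 fold change of Amot was -2.30. Ldha, the lactate dehydrogenase of glycolysis, fell by a smaller factor (-0.79 ± 0.12) but from WT levels of 2131, 2866 and 1943 CPM. The increases with the largest gain in CPM were the mitochondrially encoded mt-Nd1, mt-Cytb, mt-Nd5 and mt-Nd2, the methyltransferase gene Dnmt3b, and Dis3. Across the 7 mitochondrial genes tested, 6 rose, with a median log2 fold change of 0.59. Mitochondrial reads took 1.65% to 2.20% of the gene counts in WT and 2.05% to 2.82% in KO, ranges that overlap, and without the replicate block 3 of the 7 genes were called.

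Changes were also unevenly spread along the chromosomes. Among 10905 genes with a mean of at least 5 CPM, the 900 on chromosome 11 had a median log2 fold change of -0.31, against 0.06 for genes outside the stretches described here. Of the 900, 536 fell and 64 rose, and 82.3% lay below 0. Chromosome 11 genes took 11.2% to 11.4% of all CPM in the WT samples and 9.04% to 9.22% in KO, so every KO sample was below every WT sample. All 13 windows of 10 Mb along the chromosome had a negative median. Day 0 samples, a separate set of libraries, gave a median of -0.25 for the same 900 genes. On chromosome 8 the median of 600 genes was -0.14, with 205 lower and 73 higher in KO, and it was -0.16 at day 0.

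Distal chromosome 1 went the other way. From Actr3 to the end (chr1:125392905-195131586, GRCm38), 300 genes had a median of 0.46, with 203 higher and 20 lower. The 328 genes before Actr3 had a median of -0.06. The distal genes took 2.73% to 2.81% of CPM in WT and 3.66% to 3.78% in KO, and their median at day 0 was 0.37. Boundaries were placed after the values were seen, so the counts inside them are descriptions and no test is given.

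The steepest shifts lay on distal chromosome 14. Between Mzt1 and Slitrk5 (chr14:99034544-111683141), 21 genes with at least 5 CPM had a median of 1.50, and 20 of them rose, 17 more than 2-fold. Dis3, the catalytic subunit of the RNA exosome, had 199, 187 and 173 CPM in WT and 1038, 1025 and 1040.2 in KO (2.47 ± 0.07, adjusted p = 1.8e-05). Its neighbour Mzt1, a small protein of the gamma-tubulin complex, had 73.1, 74.5 and 69.2 CPM in WT and 425, 416 and 397 in KO (2.51 ± 0.06). Uchl3, a ubiquitin hydrolase, had 71.4, 54.5 and 44.4 CPM in WT and 370.0, 291 and 299.6 in KO (2.51 ± 0.09). The 3 KO samples of each gene were close together and far above WT. Bora, which activates mitotic kinases, rose by 2.05, Commd6 by 2.33 and Rbm26 by 1.17. Slain1, a microtubule protein, rose by 2.23 at day 3 where its day 0 difference was 0.22. Not every gene there rose. With lower expressed genes included, 26 were tested, of which 21 rose, 1 fell (Scel, -2.13 ± 0.39) and Kctd12, Ednrb, Spry2 and Gm10076 were not called, though Ednrb was without replicate 3 (3.15). Scel and Slitrk5 lost their calls without replicate 1. The median of the 21 genes was 1.33 at day 0.

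Beyond Gpc6 the sign turned. In the last part of chromosome 14 (chr14:116925315-122984035), 21 genes had a median of -0.99, and 19 fell while Abcc4, a drug and nucleotide transporter, rose (0.76 ± 0.13). These genes took 0.216% to 0.235% of CPM in WT and 0.119% to 0.122% in KO, without overlap, and their day 0 median was -0.96. With lower expressed genes included, the stretch reaches on to Fgf14 and holds 29 tested genes. Of these 24 fell, 1 rose and 4 were not called. The 334 genes of chromosome 14 before Mzt1 had a median of 0.03. Chromosome copy number was not measured in these libraries, and its part in the shifts was not tested.

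**Figure D2:**
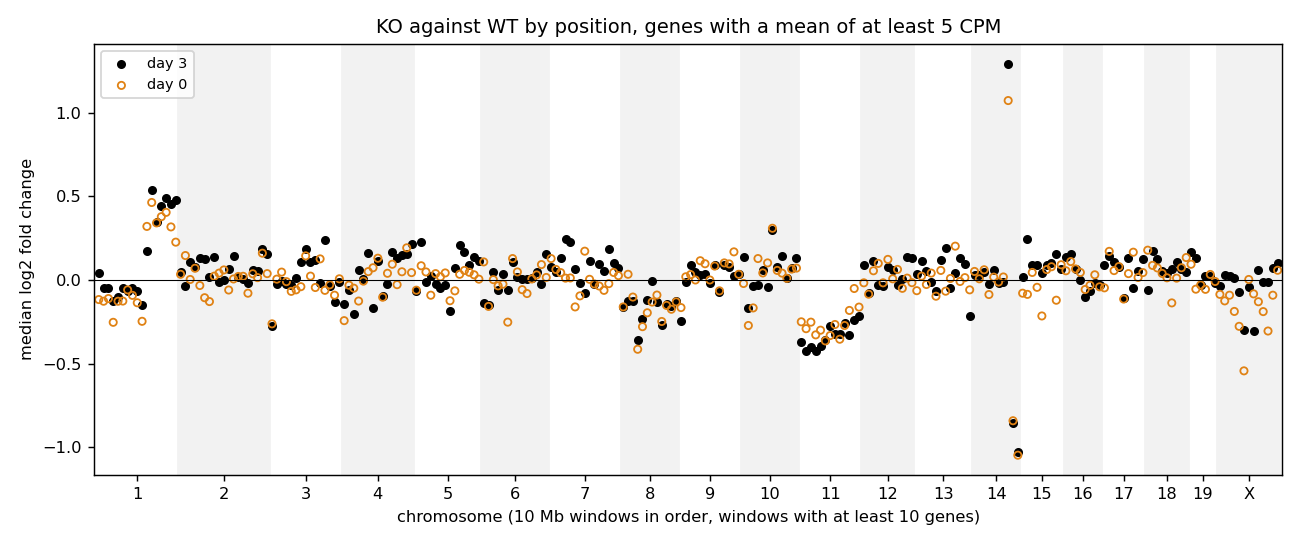
Median log2 fold change of KO against WT in 246 windows of 10 Mb with at least 10 genes of 5 CPM or more, in order along the chromosomes, at day 3 (filled) and day 0 (open). Chromosome 11 lies below 0 throughout, the end of chromosome 1 above, and chromosome 14 ends in a window far above 0 followed by windows far below it, at both days.

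Outside these stretches window medians stayed between -0.30 and 0.30 at day 3. Window medians of the 2 days had a Pearson r of 0.835 over 246 windows and of 0.473 over the 211 outside the stretches, a description only, since windows of both days share genes and cell lines. A cluster of KRAB zinc finger genes on chromosome 4, from Gm13230 to Zfp984 (chr4:145446740-147809788), rose more locally. KRAB zinc finger proteins bind and silence transposable elements, and the members of the cluster are close copies of one another, so reads that match several of them are lost from the counts. All 18 members with at least 5 CPM rose, with a median of 1.26, and 25 of all 32 tested. Zfp992 had 28.2, 18 and 19.8 CPM in WT and 75.9, 51.8 and 60.4 in KO (1.52 ± 0.07). At day 0 the median of the 18 genes was 0.35 and 8 of them rose. With the genes of all 6 stretches left out, 2551 genes fell and 2888 rose among 12329, and 1157 fell and 575 rose more than 2-fold. Large decreases outnumbered large increases there too.

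**Figure D3:**
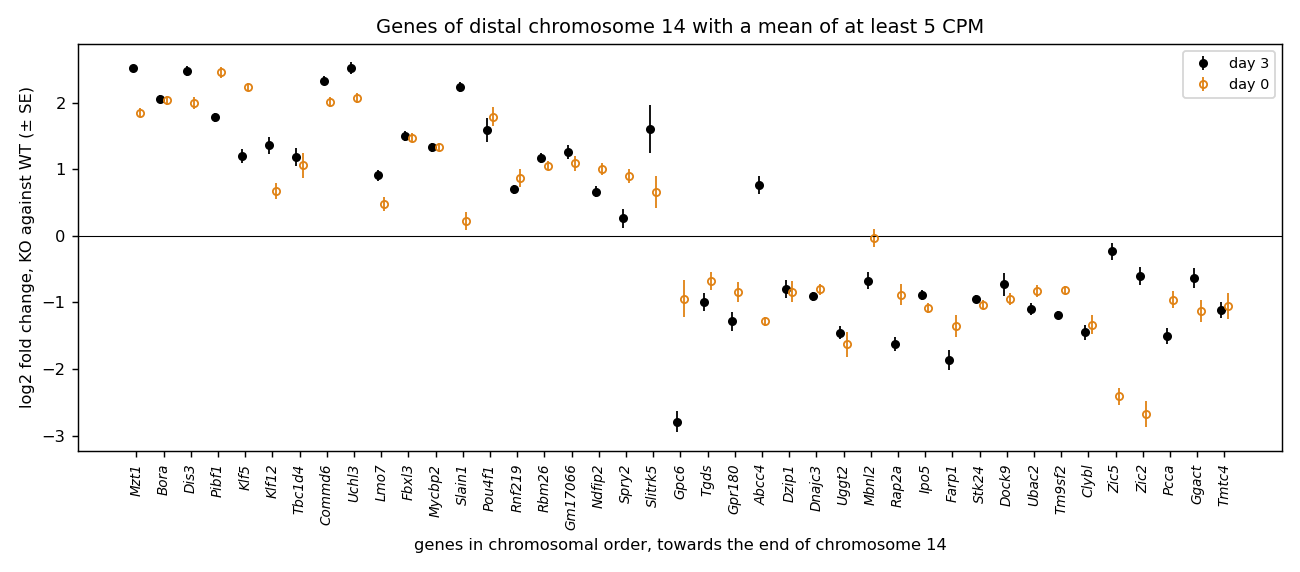
Log2 fold change of KO against WT with its SE for genes of distal chromosome 14 with a mean of at least 5 CPM, in chromosomal order, at day 3 (filled) and day 0 (open). From Mzt1 to Slitrk5 all values shown lie above 0 at day 3, and from Gpc6 on all but that of Abcc4 lie below it.

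Genes were next grouped by the tissue or pathway they mark, in 55 lists of which 946 members could be tested. Of these 316 fell and 223 rose, or 245 and 200 with the genes of the stretches left out. Over all tested genes 23.8% fell and 22.5% rose, the shares against which each list count is to be read. Definitive endoderm, which lines the gut, was broadly reduced. Of 15 endoderm genes tested 12 fell, 11 of them more than 2-fold, and Otx2, which also marks epiblast, rose. Sox17, the endoderm-determining factor, had 15.2, 11.6 and 44.1 CPM in WT and 0.31, 0.59 and 0.216 in KO (-5.95 ± 0.48, adjusted p = 0.0004). Foxa2, a pioneer factor of endoderm and notochord, had 91.5, 61.2 and 56.7 CPM in WT and 1.44, 1.24 and 2.25 in KO (-5.35 ± 0.23). Neither gene had overlapping groups. WT replicate 3 was the highest sample for Sox17, and its log2 fold change was -4.91 without that pair. Gata6 fell by 4.54, Cxcr4 by 3.56 and Hhex by 2.27 on the log2 scale, of which Gata6 ranged from -5.17 to -4.12 when each pair was left out. Without replicate 3, 11 of the 15 fell and 3 rose. Groups without overlap were frequent in general, as 23.6% of all tested genes had every KO sample below every WT sample and 21.5% every KO sample above, so separation alone says little for a single gene. In bulk RNA, fewer cells of a type and less RNA per cell cannot be told apart.

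The node and notochord, the axial organizer of the embryo, gave 7 lower genes of 10 tested and none higher. With the genes of the stretches left out, 4 of 6 were lower. Shh, the notochord signal, had 1.59, 0.947 and 11.9 CPM in WT and 0, 0 and 0 in KO, and was at least 95.5-fold lower in KO against a floor of 3 counts over the group, with most WT reads in replicate 3. Without that pair the bound was 15.4-fold. Foxj1, the regulator of motile cilia, had 37.9, 29.8 and 38 CPM in WT and 1.39, 2.06 and 3.76 in KO (-3.90 ± 0.25), and Chrd, a secreted BMP inhibitor of the node, had 56.4, 31 and 29 CPM in WT and 4.28, 5.37 and 4.67 in KO (-2.96 ± 0.24). Nodal had 66.8, 49.6 and 32.2 CPM in WT and 52.8, 29.1 and 33.6 in KO and was not called. In nascent and paraxial mesoderm, which forms somites, 11 of 14 tested genes fell and 2 rose, while 4 of its 18 listed genes were too low to be tested. Tbx6, the factor that commits cells to paraxial mesoderm, had 5.82, 7.62 and 9.34 CPM in WT and 0.774, 1.06 and 1.04 in KO (-2.98 ± 0.21), and Pdgfra, a growth factor receptor of early mesoderm, had 38.3, 39.2 and 83 CPM in WT and 2.84, 3.77 and 3.41 in KO (-3.95 ± 0.23). Msgn1 had 2.55, 2.49 and 5.79 CPM in WT and 0, 0 and 0 in KO, at least 71.6-fold lower, or at least 30.5-fold without replicate 3. The 2 genes that rose were Tcf15, which is also expressed in epiblast (1.17 ± 0.13), and the Notch ligand Dll1 (0.94 ± 0.23, groups overlapping), and Dll1 was not called without the replicate block.

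Lateral plate and cardiac mesoderm had 15 lower genes of 17 tested and none higher. Much of the WT level of this group came from 1 library. Hand1, a factor of heart and extraembryonic mesoderm, had 1.73, 1.3 and 107 CPM in WT and 0.0516, 0.059 and 0.0864 in KO, and Gata4, a factor of heart and endoderm, had 15.8, 12.6 and 103 CPM in WT and 1.65, 4.01 and 1.77 in KO. KO stayed below all WT samples in both. The log2 fold change of Hand1 was -9.09 ± 0.59 with and -4.64 without replicate 3, and that of Gata4 -3.67 ± 0.74 with and -2.37 without it. Summed over the list, WT samples held 170.0, 178 and 958 CPM and KO samples 16.1, 21.4 and 19.7. Without replicate 3, 11 of the genes fell, and without the replicate block 10. Wnt5a (20.6, 19.9 and 61 CPM in WT and 0.722, 1.42 and 0.907 in KO) and Myl7, an atrial myosin light chain (8.51, 8.07 and 47.4 CPM in WT and 0.0516, 0.354 and 0.259 in KO), were separated in every sample, with log2 fold changes of -4.98 ± 0.38 and -6.55 ± 0.46, or -4.27 and -5.38 without replicate 3.

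Genes of blood and endothelium depended most on WT replicate 3. Of 17 tested, 11 fell and none rose with all samples. Without replicate 3, 5 fell and 3 rose, and without the block 6 fell. Etv2, which starts the blood and vessel programme, had 6.93, 8.42 and 11.5 CPM in WT and 2.79, 3.48 and 2.89 in KO (-1.53 ± 0.20), and Lmo2, which also acts in blood formation, had 11.2, 14.5 and 23.1 CPM in WT and 2.63, 2.6 and 2.12 in KO (-2.69 ± 0.27). These genes fell with and without that library. Tal1, a factor of blood stem cells, had 2.45, 1.59 and 40.5 CPM in WT and 2.43, 1.95 and 4.36 in KO and was not called. Summed CPM over the list was 89.1, 86.8 and 561 in WT and 62.1 to 64.0 in KO. Of 7 trophoblast genes tested 6 fell, or 4 without replicate 3, and Hand1, which the lists share, is among them.

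Markers of other cells that embryoid bodies can hold were measured alongside. Visceral and parietal endoderm, the extraembryonic layers that can form at the surface of the bodies, had 5 of 20 genes higher and none lower. At 25.0% the share that rose is near the 22.5% of all tested genes. The median log2 fold change of the list was -0.27. Without replicate 3, 10 rose and 1 fell, and without the block 3 rose. Lrp2, an endocytic receptor of visceral endoderm and neuroepithelium, had 93.4, 116 and 116 CPM in WT and 267, 375 and 494 in KO (1.77 ± 0.11), whereas the defining genes Ttr and Afp were at or below 2.38 CPM in all samples other than Ttr in WT replicate 3 (11.6 CPM). Among 13 feeder fibroblast genes 3 fell and 4 rose, with summed levels of 102 to 111 CPM in WT and 85.1 to 132 CPM in KO. Col1a1 and Col1a2 were not called. The part of these cells in the other results was not tested.

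**Figure D4:**
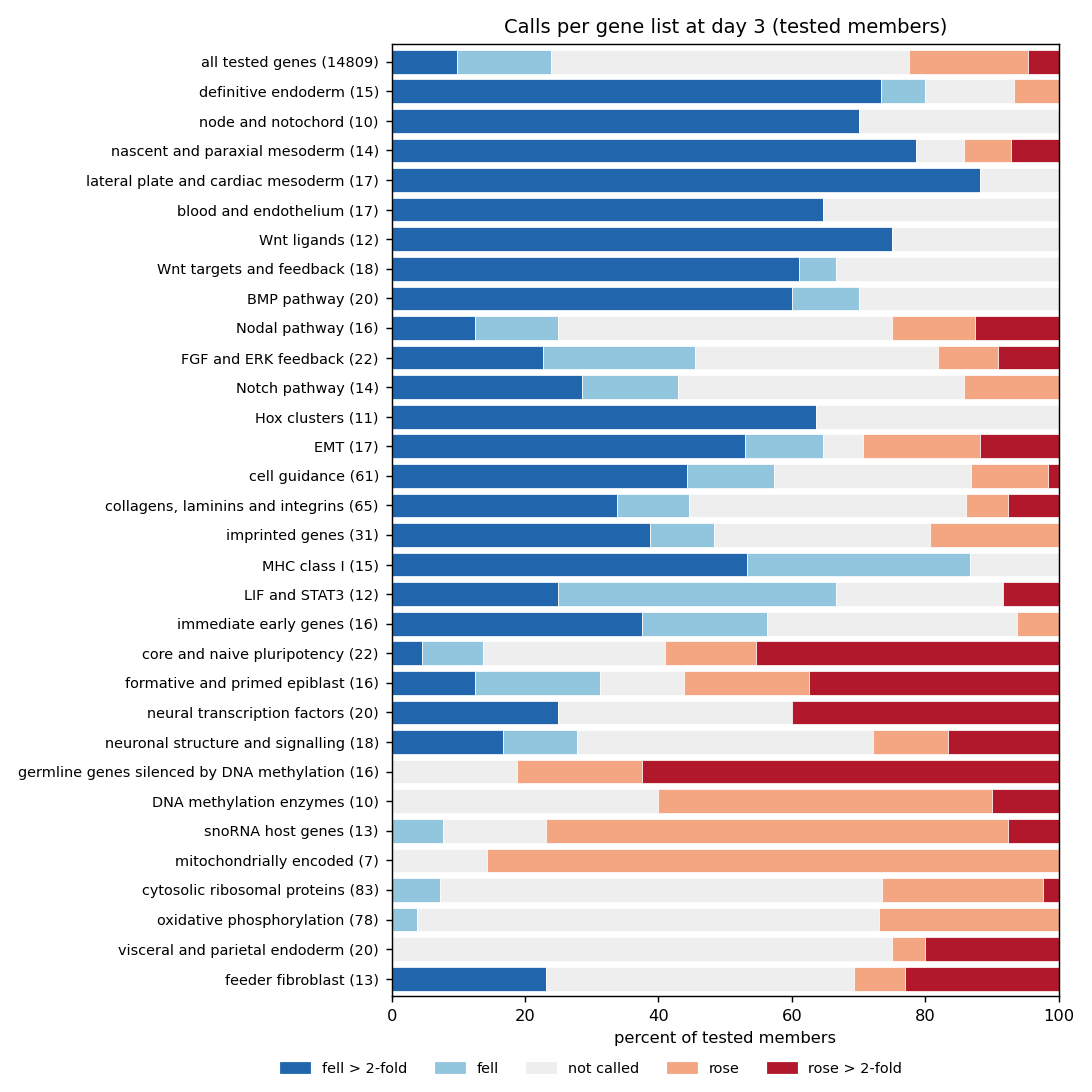
Share of the tested members of 31 gene lists that fell or rose in KO at day 3, with more than 2-fold changes in the darker colours and the number of tested members in brackets. The bar at the top gives all 14809 tested genes, and the lists of streak-derived tissues, Wnt ligands and MHC class I are mostly blue while the germline list is mostly red.

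Most Wnt ligands were lower in KO. They fell in 9 of 12 cases, all more than 2-fold, and 7 more ligands were not expressed enough to be tested. The same count of 9 was found without replicate 3 and without the block. Outside the stretches 6 of 8 ligands fell. Wnt3, the ligand required for the streak to form, had 67.7, 75.6 and 49.4 CPM in WT and 2.94, 1.42 and 3.02 in KO (-4.65 ± 0.27, adjusted p = 0.00016). Wnt8a had 89.8, 72.8 and 17.7 CPM in WT and 8.51, 0.826 and 2.55 in KO (-3.88 ± 0.52), and Wnt2b 5.96, 5.78 and 5.69 CPM in WT and 0.103, 0.354 and 0.173 in KO (-4.80 ± 0.36). All KO samples were below all WT samples in these ligands. The log2 fold change of Wnt8a ranged from -4.33 to -3.15 when each pair was left out. Of 18 Wnt targets and feedback genes 12 fell and none rose, or 9 of 11 fell outside the stretches. Axin2, a direct target that dampens the pathway, had 105, 98.3 and 64.2 CPM in WT and 11.7, 5.84 and 6.87 in KO (-3.45 ± 0.18), Sp5 had 56.7, 74.5 and 18.4 CPM in WT and 0.774, 0.118 and 0.259 in KO (-6.88 ± 0.35), and the stem cell receptor Lgr5 had 32.7, 13.6 and 25.6 CPM in WT and 0.671, 0.295 and 0.475 in KO (-5.63 ± 0.16). That of Sp5 ranged from -7.60 to -6.16 with a pair left out. The nuclear effectors were less affected. Lef1 fell (-1.60 ± 0.15), Tcf7 had 176, 213 and 122 CPM in WT and 119, 146 and 127 in KO and was not called, and the feedback ligases Znrf3 and Rnf43 stood at -0.69 ± 0.11 and -0.10 ± 0.17, of which the first was called. The posterior body factors Cdx1, Cdx2, Cdx4 and Nkx1-2, the first of which are induced by Wnt signals, all fell. Cdx2 had 4.52, 3.79 and 11.3 CPM in WT and 0.155, 0.236 and 0.259 in KO (-4.86 ± 0.34), while the call of Cdx4 was lost without the block (adjusted p = 0.075) and it was too low to test without replicate 3. Of 11 Hox genes tested 7 fell, but 28 of 39 were too low to test. Without replicate 3, 4 fell, without the block 3, and outside the stretches 4 of 6.

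In the BMP pathway 14 of 20 genes fell and none rose. Among ligands, Bmp2 had 8.8, 9.32 and 55.1 CPM in WT and 0.155, 0.59 and 0.259 in KO (-6.09 ± 0.56) and Bmp7 23.4, 26.5 and 35.4 CPM in WT and 3.87, 3.24 and 3.28 in KO (-3.02 ± 0.18), both without overlap. WT replicate 3 was the highest sample for Bmp2, and leaving out each pair gave -7.21 to -4.64, with -4.64 the value without replicate 3. Bmp4, the ligand of extraembryonic mesoderm, had 4.47, 8.17 and 56.3 CPM in WT and 5.01, 4.95 and 5.31 in KO and was not called. Targets and effectors moved less, with Id1 at -1.49 ± 0.34, Id3 at -1.23 ± 0.29 and Smad1 at -1.22 ± 0.09, all called. Without replicate 3 Id1 stood at -0.90 and Id3 at -0.74. In that fit 13 genes of the list fell, 8 of them more than 2-fold, against 12 more than 2-fold with all samples. The receptors divided, as Bmpr2 fell (-0.49 ± 0.06) and Bmpr1a, at 230.4, 225 and 203 CPM in WT, was not called (0.04 ± 0.06).

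Calls in the Nodal pathway were about as frequent as over all genes. Of 16 genes 4 fell and 4 rose, 25.0% each way, where 23.8% and 22.5% of all tested genes did. Without replicate 3, 6 fell and 5 rose. The largest fall of the list was that of Cer1, at -7.56. The coreceptor Tdgf1 had 899, 845 and 325 CPM in WT and 216, 389 and 239 in KO (-1.20 ± 0.27), with groups that overlapped through WT replicate 3. Lefty1, an inhibitor that Nodal signalling itself induces, rose from 45.7, 36.6 and 21.4 CPM to 129, 81.8 and 125 CPM (1.72 ± 0.24, adjusted p = 0.0025). Gdf3, a Nodal-related ligand of pluripotent cells, rose (1.58 ± 0.18). Smad2, Smad3 and Smad4, which carry the signal to the nucleus, were not called, with log2 fold changes between -0.12 and 0.03. For FGF ligands and ERK feedback genes, 10 of 22 fell and 4 rose. Ligands of the streak and mesoderm fell, with Fgf8 at 113, 128 and 43.7 CPM in WT and 9.29, 1.71 and 3.76 in KO (-4.22 ± 0.44) and Fgf10 at 16.9, 15.1 and 49.2 CPM in WT and 1.14, 1.42 and 0.907 in KO (-4.43 ± 0.41). WT replicate 3 was the highest sample for Fgf10, whose log2 fold change was -3.66 without that pair, and that of Fgf8 ranged from -4.71 to -3.58 with a pair left out. Fgf4, the ligand of pluripotent cells, rose, at 14.2, 12 and 24.3 CPM in WT and 49.7, 64.1 and 56.7 in KO (1.80 ± 0.21). Without the block 5 of the list fell and 3 rose. In the Notch pathway 6 of 14 genes fell and 2 rose, with Dll3 at 30.7, 37.4 and 39.2 CPM in WT and 5.01, 4.48 and 4.62 in KO (-2.92 ± 0.13) and Notch3 rising by 0.61. Without the block 4 of them fell and none rose. Hedgehog pathway genes fell in 4 of 13 cases and rose in 2, or in 2 and none without the block and in 3 and 4 without replicate 3. Genes of retinoic acid synthesis, breakdown and response fell in 3 of 12 cases and rose in 4.

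**Figure D5:**
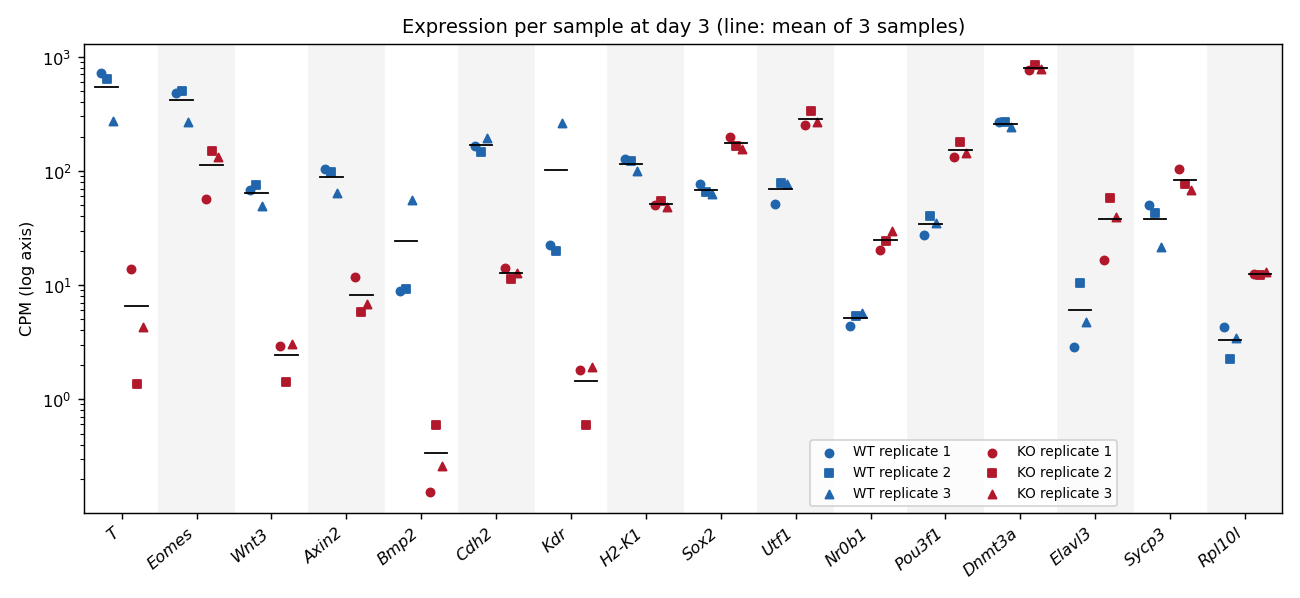
CPM per sample at day 3 for 16 genes, on a log axis, with WT in blue and KO in red, replicates 1, 2 and 3 as circles, squares and triangles, and lines at the means. All KO samples are below WT from T to H2-K1 and above WT from Sox2 to Rpl10l, and WT replicate 3 is far from the other WT samples for Kdr and Bmp2.

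Streak cells turn from an epithelial to a migratory state, and genes of both states were changed. Of 17 genes 11 fell and 5 rose, or 9 and 3 of 13 outside the stretches. Cdh2, the cadherin of mesenchymal and neural cells, had 164, 147 and 195 CPM in WT and 14.1, 11.4 and 12.8 in KO (-3.72 ± 0.09, adjusted p = 1.5e-05). Snai1, a repressor of epithelial genes, had 24.6, 26.3 and 28.9 CPM in WT and 2.22, 2.18 and 3.59 in KO (-3.33 ± 0.15), and Vim, the intermediate filament of mesenchyme, had 159.9, 190.2 and 315 CPM in WT and 26.9, 35.6 and 31.8 in KO (-2.77 ± 0.17). Cdh11 had 76, 67.8 and 88 CPM in WT and 2.58, 0.708 and 1.9 in KO (-5.48 ± 0.23). The KO values were below WT by a wide margin in each. The epithelial genes of this list rose by less, with Cdh1, the epithelial cadherin, at 0.36 ± 0.06 and Epcam at 0.46 ± 0.08. The epithelial splicing factors Esrp1 and Esrp2 stood at 0.75 ± 0.10 and 1.74 ± 0.14. A second epithelial list did not rise as a group. Of its 11 claudins and simple keratins 3 fell, all more than 2-fold, and 2 rose, with a median of -0.07. Genes that guide migrating cells and axons fell in 35 of 61 cases and rose in 8. Slit2 had 35.5, 26.8 and 35.8 CPM in WT and 3.87, 3.01 and 4.15 in KO (-3.15 ± 0.11), Plxna2 61.8, 68.1 and 108 CPM in WT and 8.2, 10.7 and 9.12 in KO (-3.06 ± 0.17), and Ntn1 98.8, 104 and 34 CPM in WT and 4.8, 9.97 and 5.31 in KO (-3.47 ± 0.28). Nrp1, a semaphorin and VEGF receptor, had 6.11, 6.23 and 139 CPM in WT and 0.516, 0.236 and 0.691 in KO, a WT level that again came mostly from replicate 3, and a log2 fold change of -6.47 ± 0.64 with and -3.99 without that pair. Of 65 collagens, laminins and integrins 29 fell and 9 rose. Itga8 had 17, 18.6 and 17.6 CPM in WT and 1.14, 0.885 and 0.907 in KO (-4.17 ± 0.17), while Itga6, a laminin receptor of epithelial and stem cells, rose, with 101, 113 and 118 CPM in WT and 242, 239 and 242 in KO (1.13 ± 0.07).

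Most pluripotency genes, though not Pou5f1 and Nanog, were higher in KO embryoid bodies. Of 22 genes 13 rose, 10 of them more than 2-fold, and 3 fell. Sox2 had 76.5, 64.8 and 62.5 CPM in WT and 199, 166 and 157 in KO (1.35 ± 0.06, adjusted p = 5.8e-05), Utf1 51.2, 78 and 77.2 CPM in WT and 250.1, 331 and 270.5 in KO (2.06 ± 0.10) and Nr0b1 4.38, 5.33 and 5.69 CPM in WT and 20.1, 24.5 and 29.5 in KO (2.26 ± 0.11). KO was above WT in every sample of these genes. Pou5f1, encoding Oct4, had 649.7, 662 and 341 CPM in WT and 759, 722 and 679.6 in KO and was not called (0.45 ± 0.16, adjusted p = 0.066). Nanog had 349.9, 360.0 and 128 CPM in WT and 172, 158 and 185 in KO and overlapped between groups. With all samples it was not called (-0.58 ± 0.32), and without replicate 3, where the WT sample was lowest, its log2 fold change was -1.11 (adjusted p = 2e-07). Tfcp2l1 and Klf4, factors of the naive state, and the germline-associated Dppa3 were the genes that fell. Without the replicate block Dppa3 alone of them was called, with adjusted p = 0.057 for Tfcp2l1 and 0.25 for Klf4. Klf4 was not called without replicate 1 or 3 either, nor Dppa3 without replicate 1. At day 0, 14 of the 22 rose and 2 fell, where 18.2% of all genes tested at that day rose and 18.5% fell. Of 12 genes of the LIF and STAT3 pathway, which maintains naive ESCs, 8 fell and 1 rose at day 3, among them the receptor Lifr (-1.28 ± 0.15) and the feedback inhibitor Socs3 (-1.23 ± 0.24). Without the block 5 of the 12 fell and none rose, and outside the stretches 5 of 8 fell and 1 rose.

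Genes of the formative and primed epiblast, the state between naive pluripotency and germ layers, differed in opposite directions at the 2 days. At day 0, 13 of 16 were lower in KO and 2 higher. At day 3, 9 were higher and 5 lower, and the change of the difference between days was called for all 16. Without the block 9 were higher and 3 lower at day 3. Pou3f1 had 27.5, 40.2 and 35.2 CPM in WT and 133, 181 and 144 in KO at day 3 (2.16 ± 0.07), against a difference of -1.95 at day 0. Dnmt3a had 266, 271 and 242 CPM in WT and 764, 841 and 773 in KO (1.61 ± 0.06), and at day 0 -1.22. Sox3, an epiblast and neural factor, rose by 1.95 after -1.05 at day 0, and Sall2, a zinc finger factor, had 92, 93.6 and 94.6 CPM in WT and 247, 231 and 214 in KO after -1.94. Otx2, a factor of the primed epiblast and forebrain, differed by -3.24 at day 0 and by 0.58 at day 3. Not all members followed, since Fgf5 was lower at day 3 (169, 112 and 63.4 CPM in WT and 68.7, 58.2 and 55.2 in KO, -0.82 ± 0.19) and at day 0 (-3.32), and Lef1 and Cdh2 were lower at both days. The call of Fgf5 at day 3 was lost without the block and without replicate 1 or 2. The formative list shares Dnmt3a and Dnmt3b with the list of DNA methylation enzymes. In that list 6 of 10 rose and none fell, with Dnmt3b at 1443, 1580.3 and 1375 CPM in WT and 2664, 2807 and 3088 in KO (0.96 ± 0.08). Uhrf1, which guides maintenance methylation, rose by 0.37, and the demethylase Tet1 by 0.79 with groups that overlapped. Without the block, 3 of the 10 were called.

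Neural genes moved in both directions. Of 20 neural transcription factors tested 8 rose and 5 fell, all more than 2-fold, and 16 more were too low to test. Without replicate 3, 9 rose and 3 fell, and outside the stretches 5 of 14 rose and 2 fell. Sox1, the first marker of neuroectoderm, had 1.11, 1.59 and 0.583 CPM in WT and 7.95, 5.07 and 4.58 in KO (2.45 ± 0.31), Pax6 0.625, 1.15 and 1.17 CPM in WT and 2.99, 2.54 and 3.41 in KO (1.62 ± 0.30), and Neurod1, a differentiation factor of neurons, 0.433, 1.49 and 1.7 CPM in WT and 3.41, 3.54 and 4.23 in KO (1.71 ± 0.36). Groups were separate in each, at low levels. Neurog3, a factor of neuronal and endocrine precursors, had 0.0481, 0.0996 and 0.535 CPM in WT and 7.28, 2.77 and 5.18 in KO (4.47 ± 0.56), and 3.70 to 5.96 with a pair left out, the highest being that without replicate 3. Nhlh1, a factor of young neurons, rose as well, at 0.0481, 0 and 0 CPM in WT and 1.6, 0.767 and 0.13 in KO, and no fold is given because WT was at or near 0. Sox21 and Irx3, also neural factors, fell by 3.56 and 2.32, and Irx3 ranged from -2.92 to -1.91 with a pair left out. Both lie in the stretches of shifted expression, Sox21 at the lowered end of chromosome 14 and Irx3 on chromosome 8. Of 18 genes of neuronal structure and signalling 5 rose and 5 fell, 27.8% each way. Those shares are near the 22.5% and 23.8% of all tested genes that rose and fell. Of the 16 outside the stretches 3 rose and 5 fell. Tubb3, the neuronal tubulin, had 12.6, 14.2 and 9.24 CPM in WT and 28.2, 34 and 33.4 in KO (1.42 ± 0.15), and the heavy neurofilament Nefh rose by 1.88. In the other direction, Nefl had 62.1, 65.1 and 31.4 CPM in WT and 24.3, 14.9 and 17.6 in KO (-1.43 ± 0.22) and the neural stem cell filament Nes 166, 165 and 89.7 CPM in WT and 78.9, 57 and 82.3 in KO (-0.91 ± 0.24), which was not called without replicate 1 or 2.

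Germline genes that DNA methylation keeps silent in somatic cells mostly rose. Of 16 tested, 13 rose, 10 of them more than 2-fold, and none fell, with a median log2 fold change of 1.18. As many as 13 rose when the block was left out, and 14 without replicate 3. Sycp3, a component of the axis of meiotic chromosomes, had 50.7, 42.4 and 21.5 CPM in WT and 103, 76.6 and 67.4 in KO (1.17 ± 0.15, adjusted p = 0.0017). Fkbp6, which acts in the piRNA pathway that silences transposons in the testis, had 1.25, 0.448 and 0.632 CPM in WT and 4.54, 7.25 and 4.71 in KO (2.82 ± 0.40). Without replicate 1 the log2 fold change of Fkbp6 was 3.41. Hormad1, which monitors meiotic chromosome pairing, had 3.94, 2.34 and 1.41 CPM in WT and 7.79, 10.9 and 8.17 in KO (1.87 ± 0.31), and Rpl10l, a ribosomal protein gene of male germ cells, 4.28, 2.24 and 3.45 CPM in WT and 12.4, 12.2 and 13 in KO (1.94 ± 0.20). KO was above WT in all samples of each. Dazl, Mov10l1, Tdrd1, Stk31, Slc25a31, Tex11, Ddx4, Piwil2 and Mael, all genes of germ cell development, also rose, by 0.85 to 1.67. Piwil2 lost its call without replicate 1 or 2. Brdt (-0.32 ± 0.25), Sycp1 (0.43 ± 0.23) and Taf7l (0.75 ± 0.34) were not called. At day 0, 7 of the 16 rose and 1 fell, and the difference between days was called for 5. Sycp3 was the gene lower at day 0 (-0.71). Early germ cell markers divided, with 5 of 10 lower and 2, Dazl and Ddx4, higher at day 3.

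Promoters of this group hold a letter string in common. The E-box CACGTG, searched on both strands in the 250 bases before the start of each gene (RefSeq, GRCm38.p6), was present in 9 of the 11 risen genes with an entry, or 81.8%. It was present in 8.46% of the 11034 promoters of tested genes that matched and in 6.05% of all 27025. All 3 promoters of the genes that were not called hold it too. The E2F-type string TCCCGC was in 5 of the 11 (45.5%) and in 30.9% of promoters of tested genes. No printed occurrence overlaps another, and a match is a description of letters, not a bound site. The sequences of the gene with the highest KO level (Sycp3), of the one with the largest rise (Fkbp6), of Hormad1 with both strings, and of Rpl10l, which rose without CACGTG, are shown with CACGTG and TCCCGC (or its reverse complement GCGGGA) in capitals. They lie at chr10:88459337-88459586 on the plus strand, chr5:135350045-135350294 on the minus strand, chr3:95559427-95559676 on the plus strand and chr12:66284402-66284651 on the minus strand.
Sycp3: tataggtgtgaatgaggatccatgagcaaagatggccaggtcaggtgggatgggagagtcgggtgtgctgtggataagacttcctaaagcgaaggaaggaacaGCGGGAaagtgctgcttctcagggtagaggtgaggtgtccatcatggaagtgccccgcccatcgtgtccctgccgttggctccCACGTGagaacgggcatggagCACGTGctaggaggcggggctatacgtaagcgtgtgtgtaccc
Fkbp6: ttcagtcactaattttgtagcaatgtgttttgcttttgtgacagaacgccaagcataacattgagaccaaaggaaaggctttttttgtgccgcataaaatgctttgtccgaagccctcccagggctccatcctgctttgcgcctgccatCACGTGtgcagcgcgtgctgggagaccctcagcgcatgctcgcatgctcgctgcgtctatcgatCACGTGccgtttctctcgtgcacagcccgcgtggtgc
Hormad1: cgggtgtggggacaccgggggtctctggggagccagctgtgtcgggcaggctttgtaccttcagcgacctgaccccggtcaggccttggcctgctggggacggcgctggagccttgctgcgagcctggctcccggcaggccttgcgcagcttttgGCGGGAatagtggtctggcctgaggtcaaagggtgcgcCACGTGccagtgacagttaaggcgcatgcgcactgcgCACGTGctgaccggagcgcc
Rpl10l: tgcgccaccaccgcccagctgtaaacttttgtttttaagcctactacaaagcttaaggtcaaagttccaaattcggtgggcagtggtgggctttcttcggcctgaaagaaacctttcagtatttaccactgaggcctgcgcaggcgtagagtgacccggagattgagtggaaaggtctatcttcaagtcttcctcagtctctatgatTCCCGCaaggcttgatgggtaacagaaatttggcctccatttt

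Genes of antigen presentation by MHC class I were lower in KO at both days. Of 15 genes 13 fell at day 3, 8 of them more than 2-fold, and none rose, and 13 fell at day 0. H2-K1, a class I heavy chain, had 127, 121 and 100.1 CPM in WT and 50.5, 54.7 and 48 in KO (-1.18 ± 0.07, adjusted p = 0.00019). The peptide transporter Tap2 had 15.6, 11.2 and 11.1 CPM in WT and 3.66, 2.3 and 2.29 in KO (-2.21 ± 0.15) and the immunoproteasome subunit Psmb8 24.1, 14.1 and 19.1 CPM in WT and 4.44, 4.54 and 3.02 in KO (-2.25 ± 0.21). KO was lower in every sample. The class I activator Nlrc5 fell from 2.07, 1.74 and 2.38 CPM to 0.568, 0.649 and 1.21 CPM (-1.37 ± 0.30), whereas B2m, the invariant light chain, fell by only 0.37, and neither was called without replicate 1. Class I heavy chains are close copies of one another, and reads they share are not counted. Of 16 interferon response genes 5 fell and 3 rose, or 5 and 1 without the block.

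Imprinted genes, expressed from 1 parental copy, fell in 15 of 31 cases and rose in 6, and without the replicate block 11 fell and 1 rose. Peg3, a maternally silenced zinc finger gene, had 477, 498 and 1232 CPM in WT and 105, 112 and 163 in KO (-2.42 ± 0.16), and Peg10, a retrotransposon-derived gene of the placenta, 329, 390.2 and 1506 CPM in WT and 106, 107 and 119 in KO (-2.38 ± 0.39). WT replicate 3 was highest for both, and without that pair the log2 fold changes were -2.17 and -1.75. Igf2, the fetal growth factor, had 28.2, 37.8 and 999.6 CPM in WT and 8.46, 6.78 and 6.22 in KO (adjusted p = 0.029), with log2 fold changes of -5.25 to -2.10 when each pair was left out, the smallest change being that without replicate 3, and H19, its noncoding neighbour, 8.9, 25.2 and 409.7 CPM in WT and 4.8, 14.3 and 7.39 in KO and was not called. Plagl1 and Ndn, whose WT samples were closer together, fell by 2.15 and 1.71. The noncoding Meg3 rose by 0.31, a call lost without the block and without replicate 1 or 2, and Rian was not called (0.13 ± 0.06).

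Groups outside development mostly changed by less than 2-fold. Hosts of small nucleolar RNAs, whose spliced transcripts are known substrates of nonsense-mediated decay, rose in 10 of 13 cases and fell in 1. Gas5 had 483, 281 and 278 CPM in WT and 809, 456 and 535 in KO (0.80 ± 0.07) and Snhg15 33.2, 24.2 and 24 CPM in WT and 60.7, 48.4 and 48.9 in KO (0.96 ± 0.07). Replicate 1 was the highest sample of both genotypes for Gas5, and without the block 3 of the hosts rose. Splicing factors of the SR family rose in 7 of 12 cases, at most by 0.41, and 1 was called without the block. Of 83 cytosolic ribosomal protein genes 22 rose and 6 fell, and all 6 that fell lie in the stretches of shifted expression. The share that rose, 26.5%, is near the 22.5% of all tested genes, and without the block 4 rose and 1 fell. Oxidative phosphorylation had 21 of 78 genes higher and 3 lower, glycolysis 7 of 20 higher and 4 lower, and cholesterol synthesis 4 of 20 higher and 2 lower. The share of oxidative phosphorylation genes that rose was 26.9%, again near that of all genes. Without the block 4 rose and none fell in oxidative phosphorylation, 2 rose and 1 fell in glycolysis, and 3 rose in cholesterol synthesis. Of 15 hypoxia response genes 9 fell and none rose, and without the block 1 fell. Immediate early genes fell in 9 of 16 cases, 6 of them more than 2-fold, and rose in 1, or fell in 5 without the block. The stress and cycle lists were mixed, with 5 lower and 7 higher of 25 genes of the integrated stress response, 4 and 4 of 19 p53 targets, and 6 and 6 of 22 cyclins and inhibitors of their kinases. Without the block these were 3 and 3, 4 and 2, and 5 and 2. Polycomb genes rose in 8 of 24 cases and fell in 1, and 4 rose without the block.

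Long intergenic RNAs rose more often than they fell. Of 215 tested, 66 rose (30.7%), 39 of them more than 2-fold (18.1%), and 24 fell (11.2%). Over all tested genes 22.5% rose, 4.65% more than 2-fold, and 23.8% fell. The largest noncoding increases by the rule for named genes were those of 1700108F19Rik (0.818, 0.747 and 0.292 CPM in WT and 7.22, 9.91 and 8.77 in KO, 3.81 ± 0.33), Mir670hg (1.64, 1.39 and 0.438 CPM in WT and 8.82, 9.08 and 7.09 in KO, 2.92 ± 0.31) and Gm43041 (3.9, 5.08 and 4.67 CPM in WT and 27.3, 31.9 and 29.9 in KO, 2.71 ± 0.11). In all of these KO was above every WT sample. Mir670hg had been lower in KO at day 0, at -3.42 on the log2 scale. Among 244 processed pseudogenes 25 rose (10.2%) and 4 fell (1.64%), both below the shares of all tested genes. Their reads may come from the parent genes. Tdgf1-ps1, a copy of Tdgf1, fell (-1.33 ± 0.30) by about as much as Tdgf1 itself.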

How the data were processed

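RNA was sequenced from 12 samples. KO and WT were compared over the 6 at day 3 and, in a separate fit, the 6 at day 0, and the change of the difference between days was tested over all 12. Per the labels, the authors trimmed adapters (cutadapt 1.3), aligned reads to GRCm38 with STAR 2.4.2a and counted reads per gene with HTSeq 0.6.1, and the deposited unit is counts. Labels and paper differ on the RNA kit and sequencer. The 5 total rows were dropped. Reads with several alignments, 36.5% to 44.1% of the reads, are not in the gene counts, and 6.14% to 9.32% fell in no gene. Coordinates came from GENCODE M21 (46005 of 46517 genes matched) and promoters from RefSeq.

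Genes above 1 CPM in at least 1 of the 6 samples were tested with edgeR 4.0.16 (quasi-likelihood test, TMM, replicate block, Benjamini-Hochberg adjustment over all tested genes) in R 4.3.3. SE is the log2 fold change divided by the root of F. The block was kept because samples with the same number deviated together from their group means (r = 0.727, 0.530 and 0.328). Different numbers gave r of at most 0.133. Deviations within a group cancel out, so these lower values follow largely from the others and are not separate support. Named genes were the 12 called coding genes that fell and the 12 that rose furthest, the same way in all 3 pairs and with at least 10 CPM in every sample of the higher group, the 6 with the largest CPM difference each way, 3 noncoding genes each way with at least 5 CPM, and called genes near Upf3b and Meteor, beside members of the lists. Members and lists were chosen with earlier results of these data known. Alternatives were limma-voom 3.58.1, DESeq2 1.42.0, RLE scaling, other filters, all 12 samples, no block, and leaving out each replicate pair. The fit was also run on simulated counts with few changed genes and no outlying library. That setting is simpler than these data, so it does not measure the error rate here. Stretches of chromosomes were bounded after the values were seen. A gene of chromosome 14 is not reported by name or drawn here.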

Additional observations from a re-analysis of the deposited data

Results flagged for a closer look

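Members of the gene lists that changed more than 2-fold in opposite directions at the 2 days, with a called difference between days, were looked at again. Values are the day 3 minus the day 0 log2 fold change of KO against WT. In 11 genes KO was lower at day 0 and higher at day 3. These were Pou3f1 (4.10), Pax6 (3.29), Sall2 (3.25), Neurod1 (3.08), Sox3 (2.99), Lrp2 (2.90), Dnmt3a (2.82), the ephrin receptor Epha8 (2.44), the epithelial polarity gene Crb3 (2.23), the growth factor receptor Fgfr2 (2.23) and the epithelial factor Grhl2 (2.15). Fgfr2 is the least secure, since its WT samples reach from 8.70 to 33.7 CPM at day 3 and its call there was lost with no replicate block (adjusted p = 0.257) and without replicate 1 or 2. Pax6 went from a mean of 15.7 CPM in WT at day 0 to 0.979 CPM at day 3, against 5.10 and 2.98 CPM in KO.

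In 4 genes KO was higher at day 0 and lower at day 3. These were the collagen Col13a1 (-4.97), the endothelial adhesion gene Esam (-3.64), the mesenchymal factor Prrx1 (-3.63) and the neural adhesion gene Ncam1 (-2.91). Esam rests on WT replicate 3, since its day 3 log2 fold change was -0.95 and not called without that pair.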

How the results depend on the processing

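The paired counts depended most on the block. With no replicate block, 2139 genes fell and 1772 rose at day 3, 119 list members rose, and the difference between days was called for 2002 genes. Leaving out each replicate pair in turn gave 2218 to 3459 genes lower and 1994 to 3287 higher, the lowest counts being those without replicate 1. With at least 10 counts required in every sample, which removes genes that were lost in KO, 905 genes fell more than 2-fold. Counts under limma-voom, DESeq2, RLE scaling, no filter and both fits of all 12 samples stayed within 1.5 times the main ones. Leaving out a pair turned the sign of Tal1 (-1.95 to 0.11), Smad2 (-0.033 to 0.11), Rnf43 (-0.28 to 0.009), Col1a1 (-0.534 to 0.028), Rpl39 (-0.001 to 0.143) and Ttr (-3.231 to 1.738), none of which was called with all samples. No other gene named in the text reversed under any alternative that could be fitted. Of 176 named genes that were called, 22 lost the call under at least 1 setting other than leaving out a pair, 16 of them with no replicate block (Abcc4, Cdx4, Dll1, Esam, Fgf5, Fgfr2, Gas5, Klf4, Meg3, Notch3, Tdgf1-ps1, Tet1, Tfcp2l1, Zfp984, mt-Nd1 and mt-Nd2). Leaving out a pair ended the call of 13 (B2m, Cdh1, Dppa3, Esam, Fgf5, Fgfr2, Klf4, Meg3, Nes, Nlrc5, Piwil2, Scel and Slitrk5). Leaving out replicate 3 added calls for Ednrb, H19, Nanog, Nodal, Pou5f1, Taf7l and Tcf7, and for Ttr with its sign turned. Depth limits genes near 1 CPM, where folds rest on few KO reads, and 3 samples a group limit small changes in genes that WT replicate 3 moves.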
